A study of Mus musculus with 12 samples.

Results

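The retinoid genes followed here are Rdh1, Rdh5, Rdh8, Rdh11, Rdh12, Rlbp1, Rbp3, Abca4, Rgr and Rpe65, 10 genes of the visual cycle and of retinol oxidation and reduction. They were chosen by symbol, and all 10 were found among the 37991 genes of the deposited tables. Retinas of male mice aged 8 weeks were sequenced in 12 mRNA-seq libraries, 3 for each of 4 classes. F0 C57BL/6J (B6) is the standard inbred strain, and F0 Cast/EiJ (Cast) is a wild-derived inbred strain. F1 B6xCast had a C57BL/6J father and a Cast/EiJ mother, and F1 CastxB6 had a Cast/EiJ father and a C57BL/6J mother. No class carried a transgene, a deletion or a treatment. Each library was a pool of 6 to 8 retinas, so it averages over several animals, and whether animals were shared between pools is not given in the sources used here. F0 libraries were sequenced on 1 lane and F1 libraries on 2, so lane number and generation cannot be told apart.

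Light turns 11-cis-retinal of the opsins into all-trans-retinal, and the visual cycle turns it back. In the photoreceptor, ABCA4 moves retinal out of the disc membrane, and the reductases RDH8, RDH12 and RDH11 turn retinal into retinol. RBP3 (IRBP) carries retinoids across the space to the retinal pigment epithelium (RPE). There RPE65 makes 11-cis-retinol, RDH5 oxidizes it, and RLBP1 (CRALBP) holds it, the last also in Mueller glia. RGR is an opsin of the RPE and Mueller glia, and RDH1 oxidizes retinol on the way to retinoic acid. The RPE lies against the neural retina and is left behind in dissection to a varying extent.

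The libraries held 8158534 to 12363291 unique hits, meaning fragments assigned to 1 gene alone and, in F1, to 1 of its alleles alone. Levels are given as count equivalents, the authors' normalized estimate of fragments per gene, or per length as FPKM, and an F1 library's level is the mean of its 2 allele columns. The retina label fitted the rod markers, since 8 of 8 were detected and their summed level was 827655 to 900240 count equivalents per library. All 8 Mueller glia markers and all 8 cone markers were detected too. Between the F0 strains, the summed levels did not overlap for cone markers (14185 to 15797 count equivalents in B6 and 10288 to 10994 in Cast), for RPE markers other than pigmentation genes (942 to 1247 and 545 to 845), for blood markers (688 to 1041 and 373 to 634), for iris and ciliary body markers (511 to 644 and 316 to 443), for vessel markers (1857 to 2660 and 2884 to 3646) or for rod markers (843110 to 849460 and 852470 to 900240). In such bulk samples, fewer cells of a type and less RNA per cell cannot be told apart.

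Per length, the photoreceptor genes Rbp3, Abca4 and Rdh12 stood highest and Rpe65 lowest. Rbp3 had a median of 983 FPKM over the 12 libraries, which put it at rank 23 of all genes, and Abca4 had 284 FPKM (rank 97). Rdh12 had 155 FPKM (rank 231), Rlbp1 95.8 FPKM (rank 402), Rdh8 39.3 FPKM and Rdh11 17.7 FPKM. Rdh5, Rgr and Rdh1 followed with medians of 2.57, 2.00 and 1.93 FPKM. Rpe65 came last with 0.426 FPKM. Within a class the order of neighbours was not always clear. Rdh5 and Rgr overlapped in range over the 12 libraries (1.38 to 3.78 and 0.647 to 2.88 FPKM), and Rdh1 spanned 0.0865 to 2.89 FPKM, lowest in F0 C57BL/6J. The range of Rbp3 (833 to 1076 FPKM) touched that of no other member, and the range of Rpe65 (0.00336 to 0.761 FPKM) overlapped only those of Rdh1 and Rgr. The 2 lowest values of Rpe65 rest on 0 allele-specific unique hits.

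**Figure D1:**
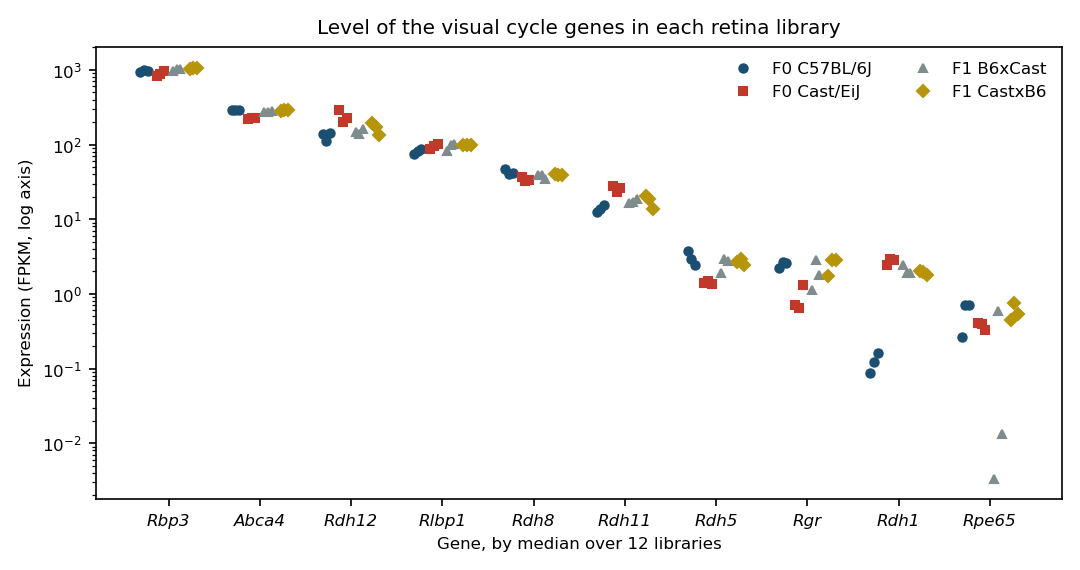
Level of each gene in each of the 12 retina libraries, as FPKM on a log axis, with genes ordered by their median and 1 point per library. Rbp3 lies near 1000 FPKM in all classes, while the F0 C57BL/6J points of Rdh1 lie below those of the other classes and 2 F1 B6xCast points of Rpe65, from 0 allele-specific unique hits, lie lowest.

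The sequence before the start of a gene is shown for 4 genes with a homeobox motif and for 3 retinol dehydrogenase genes that differed between the strains and hold none in the stretch shown. The motif is GGATTA, or TAATCC on the other strand, the core bound by the photoreceptor factor CRX. It was searched on both strands in the 250 bases before each RefSeq start (GRCm38.p6), and all 10 genes matched a RefSeq entry. It was found before 5 of the 10, namely Rbp3, Abca4, Rpe65, Rdh1 and Rgr, and in 2054 of 32851 windows of the same length (6.25%). Rlbp1, Rdh5, Rdh8, Rdh11 and Rdh12 had none. A match is a description of these letters only, and CRX binding was not analysed here. The first base of the motif lay at position -58 from the RefSeq start in Abca4, -69 in Rbp3, -42 in Rpe65 and -167 in Rgr. In Rdh1 it lay at -8, inside the gene as deposited and after the end of the stretch shown. The last 17 bases of the Abca4 stretch lie inside the gene as deposited. Each stretch matched once in the NCBI37 genome of C57BL/6J. They are chr14:34767069-34767188 (plus strand) for Rbp3, chr3:121747258-121747377 (plus) for Abca4, chr3:159262025-159262144 (plus) for Rpe65, chr14:37862201-37862380 (minus) for Rgr, chr12:80309780-80309899 (plus) for Rdh12, chr9:20622818-20622937 (plus) for Rdh8 and chr10:127196657-127196776 (plus) for Rdh1. Capitals mark the motif, and all are written 5′ to 3′ on the strand of the gene.
Rbp3: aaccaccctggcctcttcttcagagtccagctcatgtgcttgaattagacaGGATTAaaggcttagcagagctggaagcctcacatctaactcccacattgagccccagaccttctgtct
Abca4: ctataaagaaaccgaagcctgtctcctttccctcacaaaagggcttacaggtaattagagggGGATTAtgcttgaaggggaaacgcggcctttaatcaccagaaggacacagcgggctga
Rpe65: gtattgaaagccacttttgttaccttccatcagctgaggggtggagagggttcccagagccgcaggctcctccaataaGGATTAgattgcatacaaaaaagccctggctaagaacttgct
Rgr: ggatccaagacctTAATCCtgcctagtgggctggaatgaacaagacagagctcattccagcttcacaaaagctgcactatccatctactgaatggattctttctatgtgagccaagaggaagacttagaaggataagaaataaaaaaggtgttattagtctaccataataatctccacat
Rdh12: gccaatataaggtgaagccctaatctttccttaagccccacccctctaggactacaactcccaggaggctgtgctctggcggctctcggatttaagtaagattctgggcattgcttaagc
Rdh8: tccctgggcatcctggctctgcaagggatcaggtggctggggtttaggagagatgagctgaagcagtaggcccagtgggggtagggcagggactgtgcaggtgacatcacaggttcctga
Rdh1: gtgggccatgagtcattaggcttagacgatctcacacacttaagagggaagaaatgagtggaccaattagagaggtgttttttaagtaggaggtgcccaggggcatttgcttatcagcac

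The F0 strains were compared first, to find genes whose level depends on the strain. Of the 10 genes, 6 were called (limma on log2 of count equivalents plus 1, Benjamini-Hochberg adjusted p under 0.05 over 14452 genes), against 33.8% of all genes tested. Rdh1, Rdh11 and Rdh12 were higher in Cast (17.2% of genes were called higher), and Rdh5, Rdh8 and Rgr were lower (16.6% called lower). The libraries of the strains did not overlap for the same 6 genes, as for 48.0% of all genes. The median difference over the 10 genes was -0.06 on the log2 scale, beside 0.03 over all genes, and the median size of the difference was 0.53 beside 0.26. In F1, the alleles were compared within the hybrid retina, where both share one cellular environment. There 2 of the 9 genes tested were called, Rdh1 with a higher and Rdh8 with a lower Cast allele, against 47.0% of 13414 genes (23.5% higher and 23.5% lower). By count equivalents, which are rounded and tie at high levels, the same 2 were the members with one allele higher in all 6 F1 libraries, as were 42.0% of all genes. By unique hits there were 4, with the B6 allele of Rbp3 and Abca4 also higher in all 6 (45.3% of all genes). Rpe65 was left out of the allelic test because it averaged 2 allele-specific unique hits per F1 library. The difference between the F0 and the F1 value, called the trans difference, was called for 2 of 9, Rdh12 and Rgr, against 14.0% of genes.

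**Figure D2:**
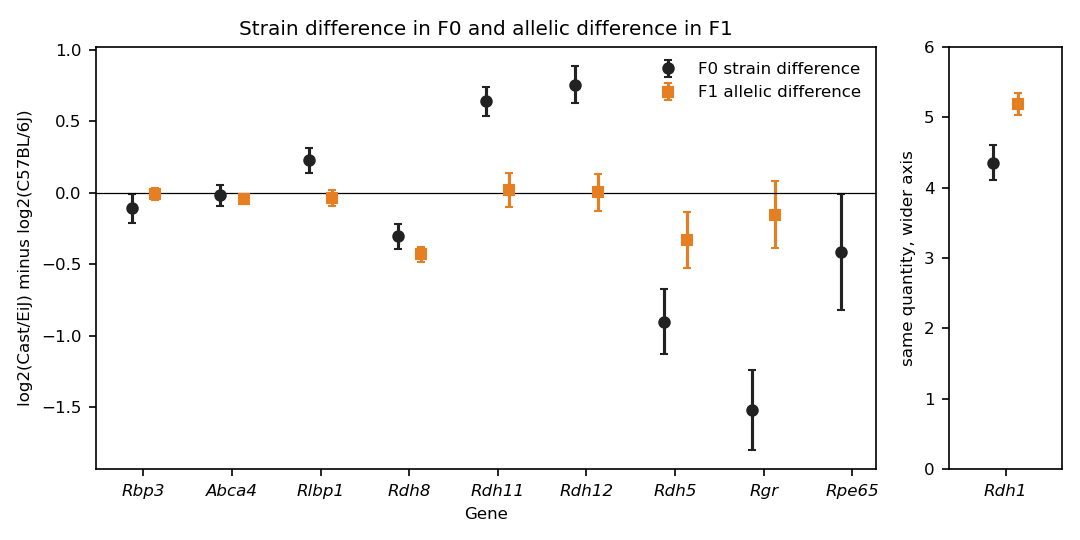
Log2 difference of Cast/EiJ from C57BL/6J between the F0 strains (dark circles) and between the F1 alleles (orange squares) for each gene, with bars of 1 standard error from limma and Rdh1 on its own, wider axis. For Rdh8 and Rdh1 both values lie on the same side of 0, while for Rdh11, Rdh12 and Rgr the F0 values lie away from 0 and the F1 values near it.

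Rdh1 (ENSMUSG00000089789, chromosome 10 of NCBI37, 127196777 to 127205353, plus strand) differed most. The F0 C57BL/6J libraries had 6.43, 9.06 and 12.1 count equivalents, and the F0 Cast/EiJ libraries had 178, 216 and 216. The groups were far apart, at 9.20 ± 2.84 and 203 ± 21.9 (SD, n = 3 each), a log2 difference of 4.36 (standard error 0.24, adjusted p 2.3e-06 from limma), or 20.5-fold on the scale with 1 added. In F1, the B6 allele had 4.20 to 9.37 and the Cast allele 253 to 342 count equivalents over the 6 libraries. The allelic log2 difference was 5.18 (standard error 0.16, adjusted p 7.7e-14), from 1325 unique hits on the Cast and 37 on the B6 allele. The Cast share of these hits ran from 96.3% (Wilson 95% interval 93.1 to 98.0) in F1 B6xCast replicate 2 to 98.0% (95.5 to 99.2) in F1 B6xCast replicate 1, and such intervals cover counting error only. The trans difference was -0.83 and missed the threshold (standard error 0.28, adjusted p 0.064). It passed in 3 of 23 alternatives, among them without F0 C57BL/6J replicate 1 (adjusted p 0.025) and without F1 CastxB6 replicate 2 (0.046).

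The neighbours of Rdh1 on chromosome 10 are paralogs, so reads can be shared. In the reference transcripts, 400 of the 3830 windows of 1 read's length in Rdh1 (10.4%) also occur in Hsd17b6, Rdh16, Rdh19, Rdh7 or Rdh9, and Rdh9 as deposited (127196843 to 127229753) covers nearly all of Rdh1. The sequencing was not strand-specific, and the split of reads among these genes is uncertain. Rdh9 showed the same pattern, at 6.31 ± 3.18 count equivalents in F0 C57BL/6J and 146 ± 9.61 in F0 Cast/EiJ (SD, n = 3 each). Its F1 alleles were at 6.47 ± 2.26 for B6 and 143 ± 17.8 for Cast (SD, n = 6 each), with log2 differences of 4.42 in F0 and 4.31 in F1 (adjusted p 1.5e-05 and 1.0e-11). Rdh16 had 1.24 ± 0.584 and 44.8 ± 7.26 in F0 (SD, n = 3 each), and 3.57 ± 2.85 and 43.8 ± 9.17 on the F1 alleles (SD, n = 6 each), and it was called in both comparisons (adjusted p 2.8e-05 and 6.3e-07). Rdh19 was called in F0 and held 33 unique hits in the 3 F0 Cast libraries and 0 in the 3 F0 C57BL/6J libraries. Its F1 alleles had 4 and 1 unique hits, on Cast and B6, over 6 libraries, too few to be tested. Rdh18-ps had 10 unique hits in F0 Cast, 1 in F0 C57BL/6J and 0 on both F1 alleles. Rdh7 had 0 unique hits in every class. Gpr182, which lies next to Rdh1 on its other side, was higher in Cast in both comparisons too (log2 1.29 and 1.08, adjusted p 5.0e-04 and 3.6e-07), while for Zbtb39 neither passed the test. Tac2, a tachykinin gene, was lower in Cast between the F0 strains (log2 -0.45, adjusted p 0.017) and higher on the Cast allele (log2 0.75, adjusted p 6.9e-08).

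**Figure D3:**
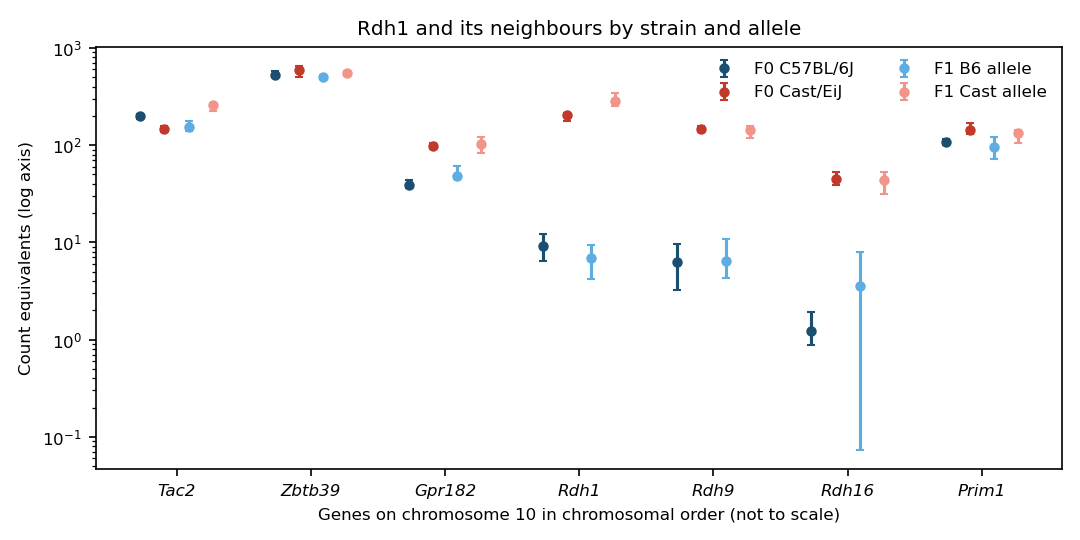
Mean count equivalents of Rdh1 and 6 nearby genes on a log axis, for the F0 strains (3 libraries each) and for the F1 alleles (6 libraries each), with bars from the lowest to the highest library. Rdh1, Rdh9 and Rdh16 reach at most 12.1 count equivalents in F0 C57BL/6J and on the B6 allele, and at least 31.3 in F0 Cast/EiJ and on the Cast allele.

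Among the photoreceptor reductases, Rdh8 (ENSMUSG00000053773, chromosome 9, 20622948 to 20630607, plus strand) was lower from Cast in both comparisons. RDH8 reduces all-trans-retinal in the outer segment. F0 C57BL/6J had 1230, 1050 and 1050 count equivalents, and F0 Cast/EiJ 955, 853 and 883. The lowest C57BL/6J library lay above the highest Cast library, and the log2 difference was -0.30 (standard error 0.087, adjusted p 0.026 from limma). This call was the least firm of the 6: the adjusted p was 0.065 without F0 C57BL/6J replicate 1, 0.091 without F0 Cast/EiJ replicate 2 and 0.075 without replicate 3, with a difference of -0.35 to -0.23 over all libraries left out. The alleles of the hybrids were further apart relative to their spread, at 1050 to 1200 count equivalents for B6 and 709 to 886 for Cast. The allelic difference was -0.43 (standard error 0.052, adjusted p 3.3e-06), the B6 allele was higher in 6 of 6 libraries, and the call held in all 23 alternatives. It was -0.46 in F1 B6xCast and -0.41 in F1 CastxB6. Of its unique hits, the Cast allele held from 39.6% (Wilson 95% interval 35.6 to 43.8) to 44.0% (40.5 to 47.7). The trans difference of Rdh8 was 0.13 (adjusted p 0.42). The summed cone markers were also lower in F0 Cast (10288 to 10994 against 14185 to 15797 count equivalents), and their part in the F0 value was not tested.

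Rdh12 (ENSMUSG00000021123, chromosome 12, 80309901 to 80323652, plus strand) and Rdh11 (ENSMUSG00000066441, chromosome 12, 80275324 to 80293280, minus strand) lie 16620 bases apart. RDH12 reduces retinal in the inner segment, and RDH11 has the same activity in photoreceptors and RPE. For Rdh12, the F0 C57BL/6J libraries had 4560, 3820 and 4580 count equivalents and the F0 Cast/EiJ libraries 8870, 6250 and 6930. Cast replicate 1 was the highest, but the lowest Cast library was still above every C57BL/6J library. The log2 difference was 0.76 (standard error 0.13, adjusted p 0.0023). For Rdh11, F0 C57BL/6J had 614, 689 and 771 and F0 Cast/EiJ 1130, 992 and 1100. These did not overlap either, with a difference of 0.64 (standard error 0.099, adjusted p 0.0013), and both genes were called with each F0 library left out. Without a filter on low values, Rdh12 missed the threshold (adjusted p 0.065).

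In F1, the mean allelic difference of both genes was close to 0, but the 6 libraries did not repeat one another. The Cast allele of Rdh12 had 4000, 3840 and 5570 count equivalents in F1 B6xCast replicates 1 to 3 and 6900, 5860 and 3460 in F1 CastxB6 replicates 1 to 3. The B6 allele was steady, at 4960, 4760 and 4440 in F1 B6xCast and 5010, 4770 and 4710 in F1 CastxB6. Thus the Cast allele was higher in 3 of 6 libraries and lower in 3, with libraries of both crosses on each side. The allelic log2 difference was 0.0035 for Rdh12 (standard error 0.13, adjusted p 0.99) and 0.02 for Rdh11 (standard error 0.12, adjusted p 0.91). The Cast share of the unique hits of Rdh12 ran from 39.95% (Wilson 95% interval 37.9 to 42.0) in F1 CastxB6 replicate 3 to 55.1% (53.4 to 56.8) in F1 CastxB6 replicate 1, so the spread between libraries was larger than counting error.

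Rdh11 moved with Rdh12. Its Cast allele had 639, 733 and 1000 count equivalents in F1 B6xCast and 1150, 956 and 623 in F1 CastxB6, and its B6 allele had 880, 884 and 798, and 816, 836 and 701. The SD of the log2 allelic ratio over the 6 libraries was 0.40 for Rdh12 and 0.37 for Rdh11, beside a median of 0.12 over 7556 genes with at least 200 allele-specific unique hits. A spread at least as large was found in 2.53% and 2.92% of those genes, and by unique hits in 0.741% and 0.688%. The genes around them were then examined, a choice made after the values were seen. Arg2 and Vti1b, which overlap each other at their ends, lie on one side and Zfyve26 on the other, with SDs of 0.39, 0.41 and 0.30. In these 3 genes, in Rdh11 and in Rdh12, F1 CastxB6 replicate 1 had the highest ratio and F1 B6xCast replicate 3 the next. Further out on the side of Arg2, the SDs were 0.18 for Pigh, 0.056 for Tmem229b, 0.59 for Eif2s1 and 0.073 for Atp6v1d. Eif2s1 rests on 28 hits per library on average. The SD of its log2 level was 0.46 for the B6 allele and 0.15 for the Cast allele. On the other side, the SDs were 0.16 to 0.23 for Zfp36l1, 2310015A10Rik and Actn1. Zfyve26 ends at 80397269 and Zfp36l1, the next gene examined, starts at 81208747, so an edge could not be placed there. Tmem229b was higher on the Cast allele by 1.09 to 1.23 on the log2 scale in every library. In F0, Vti1b and Zfyve26 were higher in Cast as well (log2 1.04 and 0.90, adjusted p 3.2e-05 and 1.8e-04).

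**Figure D4:**
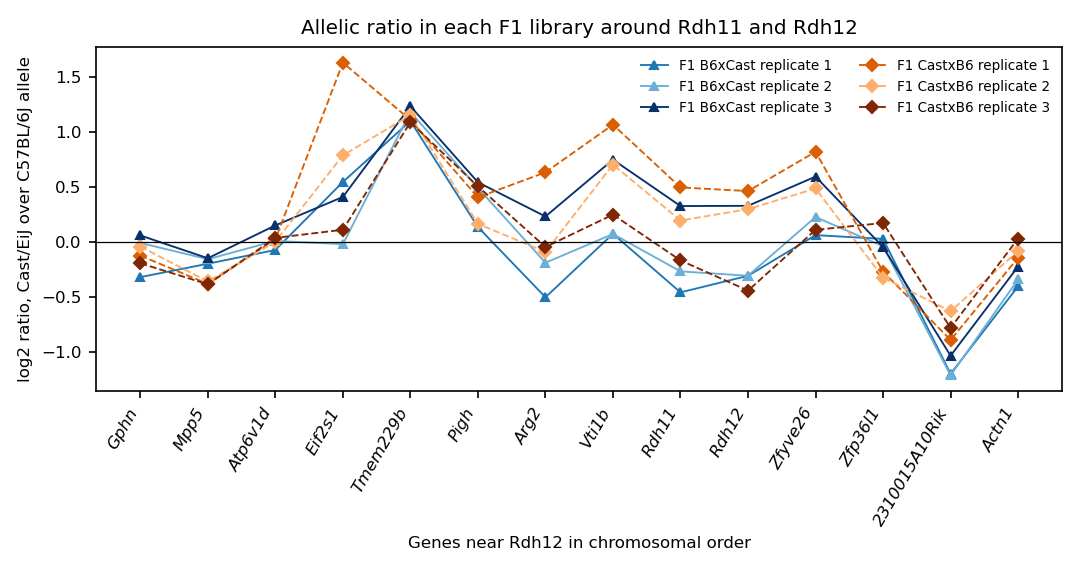
Allelic ratio, as log2 of Cast/EiJ over C57BL/6J, in each of the 6 F1 libraries for 14 genes within 1 Mb of Rdh12, from count equivalents and in chromosomal order, with 1 line per library. The lines spread apart from Arg2 to Zfyve26, with F1 CastxB6 replicate 1 on top, and come together at Tmem229b and Atp6v1d. Eif2s1, between those, rests on 28 hits per library on average.

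The trans difference of Rdh12 was 0.75 (standard error 0.24, adjusted p 0.042) and that of Rdh11 was 0.62 (standard error 0.22, adjusted p 0.066). Both set the F0 difference against a mean over F1 libraries that diverged. The divergence lay in the Cast allele, with an SD of its log2 level over the 6 libraries of 0.40 for Rdh12 and 0.37 for Rdh11, beside 0.062 and 0.12 for the B6 allele. Whether the Cast allele of this stretch was the same in every F1 pool and in the F0 Cast/EiJ mice was not tested, so the allelic and trans values of both genes are uncertain to that extent. The Rdh12 call was lost without any of the 3 F0 C57BL/6J libraries (adjusted p 0.059, 0.12 and 0.063), without F0 Cast/EiJ replicates 1 or 3 (0.13 and 0.065), without F1 B6xCast replicates 1 or 2 (0.075 and 0.088) and without F1 CastxB6 replicate 2 (0.057). Its size stayed between 0.61 and 0.86. It was called in 12 of 23 alternatives, with adjusted p from 0.0045 to 0.14. For Rdh11 the call appeared in 3 of 23 alternatives, with adjusted p from 0.014 to 0.18 over all of them. Among these were the fits without F1 B6xCast replicate 3 (0.026) or F1 CastxB6 replicate 1 (0.038). Set against F0 Cast, the Cast allele of Rdh12 was lower in F1, at -0.60 on the log2 scale (standard error 0.17, adjusted p 0.023, 16.5% of genes called), a comparison in which generation and lanes cannot be told apart. The same comparison for the B6 alleles called 0 of the 9 genes (limma, against 3.87% of all genes). There 1 of the 9 had an unadjusted p under 0.05, Rlbp1 at 0.24 (adjusted p 0.10).

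Rbp3 and Abca4, the carrier and the transporter, showed no called difference in count equivalents between strains or alleles. Rbp3 (ENSMUSG00000041534, chromosome 14, 34767208 to 34777402, plus strand) had 94100, 100000 and 99200 count equivalents in F0 C57BL/6J and 84200, 89300 and 99300 in F0 Cast/EiJ. The strains overlapped, and the log2 difference was -0.11 (standard error 0.10, adjusted p 0.45). Its allelic log2 ratio lay between -0.027 and 0 in the 6 F1 libraries. Its Cast allele was higher in F1 than in F0 Cast by 0.17 (standard error 0.054, adjusted p 0.038, 16.5% of genes called). Generation and lanes cannot be told apart there. Abca4 (ENSMUSG00000028125, chromosome 3, 121747361 to 121882979, plus strand) had 26900, 27700 and 28800 count equivalents in F0 C57BL/6J and 27100, 27400 and 27800 in F0 Cast/EiJ, a difference of -0.02 (standard error 0.071, adjusted p 0.86). The scale mattered for Abca4. Its FPKM were 286 to 294 in F0 C57BL/6J and 219 to 228 in F0 Cast/EiJ, without overlap, and on the deposited log expression the difference was -0.37 between strains (adjusted p 0.016) and -0.19 between alleles (adjusted p 3.3e-04). On count equivalents the allelic value was -0.05 (adjusted p 0.22), with the B6 allele higher in 5 of 6 F1 libraries and equal values, as rounded, in F1 B6xCast replicate 1.

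Rlbp1 (ENSMUSG00000039194, chromosome 7, 86519757 to 86531913, minus strand), which binds 11-cis-retinoids in Mueller glia and RPE, had a level per length between those of Rdh12 and Rdh8. F0 C57BL/6J had 2990, 3380 and 3560 count equivalents and F0 Cast/EiJ 3540, 3900 and 4180, which overlapped. The log2 difference was 0.23 (standard error 0.089, adjusted p 0.079), and it passed the threshold without F0 Cast/EiJ replicate 1 (0.047). In F1 the libraries had 3300 to 4020, and the allelic difference was -0.04 (standard error 0.058, adjusted p 0.64). The trans difference was 0.26 (standard error 0.10, adjusted p 0.11), and it passed without F1 B6xCast replicate 1 (0.043). The Mueller glia markers summed to 55883 to 67440 count equivalents in F0 C57BL/6J and 50254 to 56570 in F0 Cast/EiJ, which overlapped, and their part in the level of Rlbp1 was not tested.

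Of the 4 members placed in the RPE at the outset (Rlbp1, Rgr, Rdh5 and Rpe65), Rgr (ENSMUSG00000021804, chromosome 14, 37850676 to 37862150, minus strand) had the largest strain difference. F0 C57BL/6J had 66.2, 81.2 and 77.1 count equivalents, and F0 Cast/EiJ 21.0, 19.5 and 39.7. Every C57BL/6J library was above every Cast library. The log2 difference was -1.52 (standard error 0.28, adjusted p 0.0034), and it was called with each F0 library left out (-1.83 to -1.34) but not without a filter on low values (adjusted p 0.055). F1 totals had a wide range, with 33.6, 84.0 and 52.7 in F1 B6xCast and 51.7, 84.7 and 82.6 in F1 CastxB6. The alleles were not called different (-0.15, standard error 0.23, adjusted p 0.62), with the Cast allele higher in 2 of 6 libraries. The trans difference was -1.36 (standard error 0.42, adjusted p 0.041). It was called in 10 of 23 alternatives, with adjusted p from 0.011 to 0.12 and a size of -1.68 to -1.18 over the libraries left out. The call was lost without any 1 of the 3 F0 C57BL/6J libraries (0.056, 0.096 and 0.084), of F0 Cast/EiJ replicates 1 and 2 (0.10 and 0.11), of F1 B6xCast replicate 3 (0.085) or of the 3 F1 CastxB6 libraries (0.055, 0.070 and 0.068). The Cast allele was higher in F1 than in F0 Cast by 1.15 (standard error 0.31, adjusted p 0.016). In that comparison 16.5% of all genes were called, and generation and lanes cannot be told apart.

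Rdh5 (ENSMUSG00000025350, chromosome 10, 128350649 to 128359944, minus strand), the 11-cis-retinol dehydrogenase of the RPE, had 61.2, 54.8 and 40.8 count equivalents in F0 C57BL/6J and 27.4, 30.2 and 24.1 in F0 Cast/EiJ. The strains did not overlap, and the log2 difference was -0.90 (standard error 0.23, adjusted p 0.015). The call was lost without F0 C57BL/6J replicate 1 (adjusted p 0.051) or replicate 2 (0.058). F1 libraries had 32.7 to 59.3. The allelic difference was -0.33 (standard error 0.20, adjusted p 0.18), made up of -0.71 in F1 B6xCast (adjusted p 0.058) and 0.04 in F1 CastxB6 (adjusted p 0.93), from 52 allele-specific unique hits per library on average. Of the 2000 windows of 1 read's length in Rdh5 transcripts, 427 (21.4%) also occur in its neighbour Bloc1s1, so its level is uncertain to that extent. The trans difference was -0.57 (standard error 0.36, adjusted p 0.32).

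Rpe65 (ENSMUSG00000028174, chromosome 3, 159262197 to 159287763, plus strand), the isomerase that defines the RPE, was near the limit of detection. F0 C57BL/6J had 7.71, 20.7 and 20.1 count equivalents from 7, 20 and 17 unique hits, and F0 Cast/EiJ had 11.7, 11.5 and 9.61 from 8, 8 and 8. The strains overlapped, with a log2 difference of -0.41 (standard error 0.41, adjusted p 0.46). In F1 the levels were 0.0951, 16.8 and 0.380 in F1 B6xCast and 12.6, 21.6 and 15.1 in F1 CastxB6, from 0, 4 and 0 and from 2, 2 and 4 allele-specific unique hits. In F1 B6xCast replicates 1 and 3 the deposited posterior SD of the log expression was 7.39 natural log units or more on each allele, so these estimates are undetermined rather than low. With 0 of 10186553 and 0 of 8808577 unique hits, the count of 0 allows up to 3 in each, as many as other F1 libraries had. With so few allele-specific unique hits, an allelic difference of Rpe65 was not detectable.

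**Figure D5:**
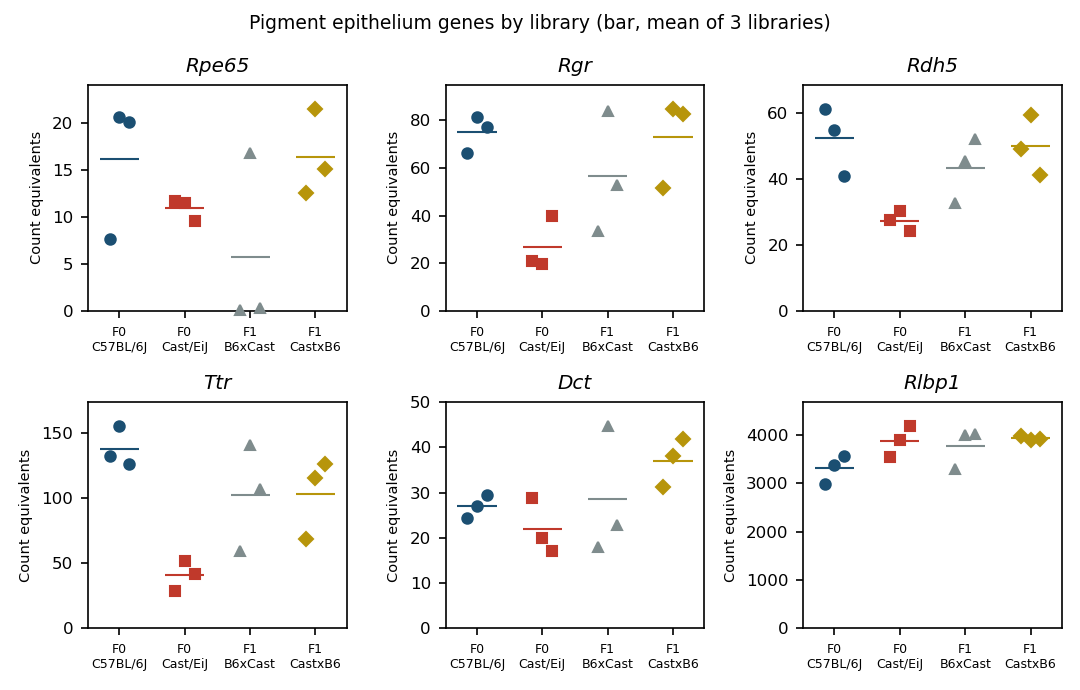
Count equivalents per library for 4 of the visual cycle genes (Rpe65, Rgr, Rdh5, Rlbp1) and for Ttr and Dct, which are on the RPE marker lists, with 1 point per library and a bar at the mean of 3. Rgr, Rdh5 and Ttr lie lower in F0 Cast/EiJ than in F0 C57BL/6J without overlap, whereas Dct, Rpe65 and Rlbp1 overlap.

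To separate the neural retina's own transcripts from those of attached RPE, the members were set beside RPE marker genes, 9 of pigmentation and 11 others, none of them a member. Of these 20 genes 19 were in the tables. Pigmentation genes were near the limit of detection. Their summed level was 55.0 to 87.2 count equivalents in F0 C57BL/6J, 66.9 to 70.9 in F0 Cast/EiJ, 53.7 to 114 in F1 B6xCast and 80.1 to 122 in F1 CastxB6. The F0 strains overlapped. Best1, a channel of the RPE, had a median of 3.01 count equivalents and 0 unique hits in 3 libraries. Gpr143 and Krt8 also had 0 unique hits in 3 libraries each, and Mlana, Slc45a2 and Oca2 in 1 each. Dct was the highest of the pigmentation genes by its median, at 17.2 to 44.8, though not in every library. The other RPE markers summed to 942 to 1247 in F0 C57BL/6J, 545 to 845 in F0 Cast/EiJ, 739 to 984 in F1 B6xCast and 843 to 956 in F1 CastxB6. Krt18 (200 to 570) and Rrh (122 to 208) were the highest of them by their medians. Between the F0 strains, 0 of the 3 pigmentation genes and 2 of the 8 other markers that could be tested were called (limma, against 33.8% of all genes). The 2 called, Ttr and Krt18, were lower in Cast. At an unadjusted p under 0.05 there were no more. Tyrp1 (log2 0.69, adjusted p 0.21) and Stra6 (0.38, adjusted p 0.29) had higher values in Cast without passing. Krt18 was at -0.94 both between the strains and between the F1 alleles. Ttr, the retinol-binding protein's partner, was at 126 to 155 in F0 C57BL/6J and 28.3 to 51.5 in F0 Cast/EiJ (log2 -1.77, standard error 0.23, adjusted p 4.6e-04), and it had a trans difference of -1.78 (adjusted p 0.0074). The part of these markers in the lower Rgr and Rdh5 of F0 Cast was not tested.

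Within classes, the members' levels were set against the summed RPE markers over the 12 libraries, after removing the class means (two-sided exact permutation within classes, adjusted over the 10 correlations computed). Rpe65 gave r = 0.49 (exact p = 0.24, adjusted 0.35; Spearman's rho 0.44, p = 0.21) and Rgr gave r = 0.70 (exact p = 0.069, adjusted 0.14; rho 0.66, p = 0.059). For Rdh5 it was 0.13 (exact p = 0.73; rho 0.20, p = 0.59). The pair that passed were photoreceptor genes, Rbp3 with r = 0.87 (exact p = 0.0015, adjusted 0.015; rho 0.89, p = 0.0062) and Abca4 with r = 0.70 (exact p = 0.0085, adjusted 0.042; rho 0.50, p = 0.081). Rlbp1 gave r = 0.88 (exact p = 0.029, adjusted 0.098; rho 0.80, p = 0.021). Without the 2 libraries farthest from the median of the markers, F0 Cast/EiJ replicate 1 and F0 C57BL/6J replicate 2, r was 0.77 for Rbp3, 0.87 for Abca4, 0.76 for Rgr and 0.69 for Rpe65, with exact p = 0.014, 0.021, 0.0069 and 0.19. None passed after adjustment, but the 144 permutations left give no exact p below 0.0069, so these p-values do not bear on whether the relation depends on those libraries. With the pigmentation genes alone, Rpe65 was the gene that passed (r = 0.93, exact p = 0.0023, adjusted 0.023; rho 0.94, p = 0.0023), and Rbp3 gave r = 0.42 (adjusted 0.26). This value includes the 2 undetermined estimates. Without the F1 B6xCast class, r for Rpe65 was 0.91 over 9 libraries (exact p = 0.014, adjusted 0.14; rho 0.92, p = 0.014), with 0.0046 the smallest p of 216 permutations.

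Maternal and paternal alleles were compared over the reciprocal crosses. Of the 9 genes tested none was called (limma, against 0.492% of all genes), none had an unadjusted p under 0.05, and none was called in any of the 23 alternatives, edgeR and DESeq2 included. The largest value was that of Rdh5, at -0.38 on the log2 scale of maternal over paternal (standard error 0.20, unadjusted p 0.074 from limma). Total levels of the 2 crosses were not called different for any of the 10 genes (0.0359% of all genes called). In that comparison only Rpe65 had an unadjusted p under 0.05 (0.042 from limma), with a log2 difference of 2.51 of F1 CastxB6 over F1 B6xCast and an adjusted p of 0.92.

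For 6 of the genes, the 5 genes with the most similar pattern over the 12 libraries were taken, by Pearson's r of log2 levels among the 12078 genes averaging 50 count equivalents or more. These are descriptions over 12 libraries that share the 4 classes. Zfyve26, near Rdh12 on chromosome 12, was first for Rdh12 (r = 0.96), before Slc39a3, Vps13a, Cdk6 and Peo1 (0.91 to 0.92). Rdh1 was followed by Trim43b, Gk5, Gm15454, Gm16589 and Amd2 (all above 0.99). For Rlbp1 they were Trim32 (0.99), Cox7c, Wdr1, Vps41 and Cntn1. Rgr had 9530068E07Rik (0.95), Brcc3, Zfp870, Pik3r3 and Aco1, and Rdh5 had 4933411K20Rik (0.95), Ntpcr, Fam33a, Rint1 and BC025920. For Rpe65 they were Cnih (0.95), Txn1, the gene ENSMUSG00000065037, Rpl27-ps3 and Ahsa1. None of these is on the RPE lists, but most RPE markers were too low to be searched. Every pigmentation gene stayed below 50 count equivalents in all 12 libraries (Dct the highest, at most 44.8). So did Best1, Lrat, Slc16a8, Krt8, Slc6a20a and Ermn. The absence therefore bears only on the higher markers, such as Krt18 and Rrh. The r values for Rpe65 also include those F1 B6xCast estimates called undetermined above.

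Other genes of retinoid metabolism were counted from a list of 58, of which 57 were in the tables. Between the F0 strains 39 could be tested and 20 were called, 12 higher and 8 lower in Cast (33.8% of all genes were called), and between the alleles 36 could be tested and 24 were called, 15 higher and 9 lower (47.0% of all genes). The medians over the tested genes were -0.03 and 0.08 on the log2 scale, beside 0.03 and 0.00 over all genes. Retsat, the retinol saturase, was higher in Cast by 2.08 in F0 and 1.19 on its allele (adjusted p 1.5e-06 and 2.5e-10), with a trans difference of 0.90 (adjusted p 8.6e-05). Bco2, which cleaves carotenoids, was higher by 2.35 and 3.43 (adjusted p 9.4e-05 and 1.7e-10). Also higher in both comparisons were Crabp1 and Crabp2, which bind retinoic acid, the dehydrogenases Dhrs7, Dhrs13, Rdh9, Rdh10 and Rdh16, and Opn4, the opsin of intrinsically photosensitive ganglion cells. Lower in both were Aldh1a7, a paralog of the retinal dehydrogenase Aldh1a1, at -4.99 and -4.47 (adjusted p 2.3e-04 and 2.8e-09), as well as Lpl, Rdh13 and Opn1sw, the short-wavelength cone opsin. Reads of the close paralogs Aldh1a1 and Aldh1a7 may be divided between them, so these values are uncertain. Aldh1a1 itself was lower in F0, at -1.11 (adjusted p 9.4e-05) with a trans difference of -0.97 (adjusted p 1.8e-05). In F0 alone Rdh19 and Rarg were called higher and Ttr, Cd36 and Degs1 lower. Between the alleles alone, Lrat, Rrh, Rara, Adh5 and Hsd17b1 were called higher on Cast, and Dhrs3, Rxra, Rxrg and Scarb1 lower. A gene called in one comparison and not in the other is not thereby shown to differ between them. Of the 36 genes, 6 had a called trans difference, against 14.0% of all genes. Retsat had a positive value, and Aldh1a1, Bco2, Lrat, Opn1sw and Ttr had negative ones.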

How the data were processed

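mRNA-seq values of 12 retina libraries were used, 3 per class, grouped by their labels. Trim Galore 0.2.6 and Bowtie 0.12.9 are named in the submitters' processing notes. The authors built Ensembl transcriptomes of each strain (for F0) and of both together (for F1) on NCBI37, aligned the reads to them and ran MMSEQ. The signal values, the count equivalents, were deposited by the authors after normalization across libraries and are not whole numbers. Expression was deposited by the authors as a natural log, and its exponential was used as FPKM. Unique hits are read counts deposited without normalization. They were 8158534 to 12363291 per library and set the precision. The authors' posterior SDs were deposited too and were used only to describe Rpe65 in F1. In the authors' table of model comparisons, which holds parameters, posterior probabilities and Bayes factors of their models, only the flag for polymorphic genes was used. The 36 columns of per-library means and SDs repeated there were not used.

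The F0 comparison took autosomal genes reaching 10 count equivalents in 3 or more libraries. The allelic comparison took autosomal genes that are polymorphic and average 10 or more unique hits per F1 library over both alleles, with all 12 libraries in 1 fit and the F1 library as a block (duplicateCorrelation, consensus 0.1354). Both used limma 3.58.1 with a trend on log2(count equivalents + 1) in R 4.3.3, with Benjamini-Hochberg adjustment over all genes tested and calls at 0.05. The F1 cross comparison used the mean of both allele columns and the same filter as F0. Alternatives used edgeR 4.0.16 on unique hits or rounded count equivalents, DESeq2 1.42.0, the log expression, TMM factors, pseudocounts of 0.1 and 5, no filter, a mean of at least 50, a replicate block, and each library left out. The fits were tested on simulated data. Replicates are separate pools, and p-values measure the spread between them. Shares carry Wilson intervals at 95%, and a count of 0 was taken to allow 3 counts. The members and all gene lists were chosen with earlier results of these data known. All 10 members are named whatever their values. Retinoid list genes are named where called between strains or alleles, except for 1 result that is not reported here. Paralogs of Rdh1 are given by their values, and for 6 members the 5 most similar genes over the libraries are named. Sequences were taken from RefSeq (GRCm38.p6) and located in NCBI37 by an exact single match, and shared windows were searched in GENCODE transcripts of the C57BL/6J reference. Tests of the correlations used Python 3.11.15 with scipy 1.17.1.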

Additional observations from a re-analysis of the deposited data

Results flagged for a closer look

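The difference between Cast/EiJ and C57BL/6J was not the same in the F0 parents and between the F1 alleles for a pair of genes, by the test of that difference itself in limma. For Rdh12 the F0 difference exceeded the allelic difference by 0.75 on the log2 scale (0.7523, adjusted p 0.042). For Rgr it was -1.36 (-1.364, adjusted p 0.041). Both adjusted p-values lie near the threshold, and 1 library left out was enough to lose either call, as given with the values above. No class had more than 3 libraries, so single libraries were not tested for standing apart from their class.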

How the results depend on the processing

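The F0 calls of Rdh1, Rdh5, Rdh8, Rdh11, Rdh12 and Rgr and the allelic calls of Rdh1 and Rdh8 had the same direction in each alternative that was run. Without a filter on low values, 2 of the 10 genes were called in F0 (Rdh1 and Rdh11), 3161 genes were called of 34964 tested (4887 of 14452 with the filter), and 0 of the 9 genes had a trans call; Rdh5, Rdh8, Rdh12 and Rgr then had adjusted p of 0.062, 0.12, 0.065 and 0.055 in F0. Trans calls among the 9 genes were 1 with edgeR on unique hits, 0 with edgeR on rounded count equivalents and 1 without the library block, and 0 to 2 with a library left out. Parent-of-origin calls over all genes were 39 with edgeR on unique hits and 38 at a mean of at least 50. Cross calls over all genes were 18 with DESeq2, 22 with no filter and 4 to 12 with a library left out, the highest without F1 B6xCast replicate 1. The count of correlations with RPE markers that passed, 2, was 1 on FPKM, 1 with pigmentation genes alone, 1 without them and 1 without Krt18, Rrh and Stra6. It was 0 with Ttr alone. It was also 0 without the 2 farthest libraries, with pigmentation genes alone but no F1 B6xCast libraries, and in F1 alone, where the smallest exact p (0.0069, 0.0046 and 0.028) leaves little or no room to pass over 10 genes, so these counts say nothing about stability. The list without Krt18, Rrh and Stra6, Ttr alone, and leaving out F1 B6xCast were chosen after seeing the data.

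Values that turned their sign were not called in either setting. With edgeR on unique hits the allelic difference of Rdh12 was -0.090 and the trans difference of Abca4 was -0.00953. On log expression Abca4 had a trans difference of -0.17 and a parent-of-origin difference of -0.014. With a library left out, the ranges were -0.042 to 0.0071 for Abca4 in F0, -0.096 to 0.10 for Rdh11 and -0.10 to 0.14 for Rdh12 between alleles, and -0.23 to 0.0024, -0.047 to 0.0026 and -0.0030 to 0.016 for the parent-of-origin difference of Rdh1, Rdh8 and Rlbp1. For the cross difference they were -0.16 to 0.013 for Rdh1, -0.091 to 0.19 for Rdh11 and -0.031 to 0.11 for Rlbp1. The correlation with RPE markers was -0.21 (Ttr alone) and -0.92 (F1 alone) for Rdh1, and -0.16 (FPKM), -0.32 (Ttr alone) and -0.0059 (F1 alone) for Rdh11. For Rdh5 it was -0.17 (pigmentation genes alone, no F1 B6xCast libraries). Of all values of single genes under the alternatives, 934 kept direction and side of the threshold, 46 lost and 13 gained a call, and 24 turned. The cause was not tested. Deviations of libraries with the same replicate number correlated at -0.14 to 0.40 over 18 pairs and those with different numbers at -0.39 to 0.31 over 36. Some same-numbered pairs were above 0.1 and others were not, so the numbers were not taken to pair the libraries. With a replicate block 6376 genes were called in F0, where Rlbp1 then passed (adjusted p 0.0051), as did its trans difference (0.032). Of the members, Rpe65 had the fewest allele-specific unique hits, at most 4 in an F1 library.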
